A study of Homo sapiens and Mus musculus with 69 samples.

Results

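The genes described here are 29 genes of cholesterol and fatty acid synthesis. They were chosen by symbol and known function, by a rule that uses no measured value but that was set with earlier results of these data known, from 20516 genes listed for human small cell lung cancer (SCLC) lines, and their mouse counterparts were looked up among 18501 genes listed for the mouse SCLC line KP1. All 29 were found in the human table, and 27 were found for KP1, where *Hmgcs1* and a row for *Scd* without a number were not listed. Each human gene passed the filter on low values in every human line, and 26 of the 27 mouse genes passed it, the exception being *Nsdhl*. By role, 7 genes belong to the mevalonate part of the pathway, 11 lead from squalene to cholesterol, 4 regulate or carry sterols and 7 make or desaturate fatty acids.

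Bulk mRNA was sequenced from 69 libraries in 23 groups of 3, of which 60 libraries came from the human lines H82 (labelled NCI-82), H524, H69 and COR-L88 and 9 from KP1, a line of a mouse SCLC with mutant *Rb1* and *Trp53*. H82, H524 and H69 carried a lentiviral, doxycycline-inducible (dox) NOTCH1 intracellular domain, the active form of the receptor, in drug-selected cells. Each of these lines was profiled as parental cells, with the vector and no dox, and as adherent cells after at least 28 days with dox at 1 µg/mL. In H82 the NOTCH1 vector was also profiled, with and without dox, in cells edited at *REST* (REST KO) or at *STING1* (STING KO), and in H524 a dox-inducible REST vector was profiled with and without dox. COR-L88 was treated with DMSO, with 100 nM TAS1440, an inhibitor of the demethylase LSD1, or with TAS1440 and 2 µM of a γ-secretase inhibitor (GSI), which blocks the cleavage that releases active Notch, and STING KO COR-L88 with DMSO or TAS1440. KP1 received DMSO, 100 nM TAS1440 or TAS1440 with a GSI at 10 µM, and the GSI differed, being BMS-708163 in COR-L88 and DBZ in KP1. Per the study's methods these treatments lasted at least 28 days. The legends of its RNA panels give a longer time for dox in H82, H524 and H69 than for TAS1440 in COR-L88, and the longest in H69. Line and length of treatment therefore cannot be told apart where these lines are compared. Each knockout used a single guide sequence with drug selection. The study shows single-cell knockout clones by immunoblot, and whether the sequenced knockout libraries came from clones or pools is not given in the sources used here. No group had dox without a vector, and the induced cells were collected as adherent cells, so the induced gene, doxycycline, long culture and adherence cannot be told apart in any comparison of dox with no dox. Nothing in the labels says whether the 3 libraries of a group came from separate cultures, so the *P* values measure only the spread between these libraries.

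Cells make cholesterol from acetyl-CoA through mevalonate, squalene and lanosterol, and make fatty acids from the same precursor. Most of these enzymes are switched on together by the sterol regulatory element-binding proteins, encoded by *SREBF1* and *SREBF2*: when membrane sterol is low, the escort protein SCAP carries them from the endoplasmic reticulum to the Golgi, where proteases release their active part. *INSIG1* encodes a protein that holds SCAP back when sterol is sufficient, and is itself a target of the pathway.

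Promoter sequences were looked up for all 29 genes in RefSeq (GRCh38.p14) over 300 bases, from 250 before to 50 after each start, and 25 genes had 1 or more, 34 promoters in all. The sterol regulatory element written TCACNCCAC was found on either strand in 1 of the 25 genes (4.00%, against 1.39% of 27305 genes in the table), and its shorter form TCACNCCA, which any match of the longer form also holds, in 3 (12.0% against 4.80%). CCAAT, the box bound by NF-Y, a partner of these factors, was found in 20 (80.0% against 39.7%). The GC box GGGCGG was found in 24 (96.0% against 48.3%) and the E-box CACGTG in 3 (12.0% against 8.77%). A match of these letters is not evidence of binding. The 250 bases before the start are shown for *SREBF2* (chr22:41832855-41833104, plus strand) and *MSMO1* (chr4:165327419-165327668, plus strand), which held a sterol element, and for *HMGCS1* (chr5:43313413-43313662, minus strand, its more upstream start), *INSIG1* (chr7:155297628-155297877, plus strand) and *SCD* (chr10:100346983-100347232, plus strand), which were among the genes with the largest falls below. Capitals mark sterol elements, CCAAT boxes (ATTGG on the other strand) and E-boxes.
SREBF2: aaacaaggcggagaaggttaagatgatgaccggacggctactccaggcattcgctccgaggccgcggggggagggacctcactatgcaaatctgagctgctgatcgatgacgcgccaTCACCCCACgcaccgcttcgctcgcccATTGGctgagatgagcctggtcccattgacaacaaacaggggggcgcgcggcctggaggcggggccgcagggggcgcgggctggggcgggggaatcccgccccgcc
MSMO1: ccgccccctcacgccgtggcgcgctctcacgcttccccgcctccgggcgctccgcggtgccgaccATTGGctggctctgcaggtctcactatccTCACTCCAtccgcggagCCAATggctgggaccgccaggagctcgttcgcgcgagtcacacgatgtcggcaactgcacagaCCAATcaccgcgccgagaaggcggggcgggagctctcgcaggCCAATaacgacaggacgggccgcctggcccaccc
HMGCS1: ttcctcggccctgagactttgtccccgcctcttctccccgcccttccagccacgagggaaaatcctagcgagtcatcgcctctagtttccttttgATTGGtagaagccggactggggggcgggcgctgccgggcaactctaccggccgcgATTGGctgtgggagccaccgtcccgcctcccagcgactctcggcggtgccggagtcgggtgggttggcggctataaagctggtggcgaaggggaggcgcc
INSIG1: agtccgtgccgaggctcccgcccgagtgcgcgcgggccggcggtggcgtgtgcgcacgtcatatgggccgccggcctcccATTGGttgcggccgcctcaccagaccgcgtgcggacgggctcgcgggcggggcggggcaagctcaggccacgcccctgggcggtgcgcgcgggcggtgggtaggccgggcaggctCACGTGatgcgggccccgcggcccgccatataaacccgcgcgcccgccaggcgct
SCD: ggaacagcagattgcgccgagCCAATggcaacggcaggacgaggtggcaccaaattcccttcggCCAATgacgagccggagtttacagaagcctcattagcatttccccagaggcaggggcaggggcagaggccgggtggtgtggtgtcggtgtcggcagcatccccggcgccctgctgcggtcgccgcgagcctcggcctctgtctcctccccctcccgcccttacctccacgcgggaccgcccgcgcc
The *SREBF2* window held both a sterol element and a CCAAT box, that of *MSMO1* held 1 short sterol element and 4 CCAAT boxes, and those of *HMGCS1* and *SCD* held 2 CCAAT boxes each and no match to the sterol elements searched.

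All values are the deposited log2 values of RPKM + 1, a level per gene length and per library size, so that a difference of 1 is close to a doubling except at low levels. Before any perturbation the genes spanned a wide range. In the parental or DMSO-treated human lines *FDPS*, *FADS1*, *LSS* and *ACAT2* had mean levels from 8.11 to 10.45, whereas *SC5D*, *TM7SF2* and *SREBF1* had mean levels from 1.76 to 4.24. *SREBF2* was far above *SREBF1* in each human line (7.96 ± 0.45 against 2.27 ± 0.20 in H82, SD, *n* = 3), but in KP1, whose table was scaled separately, *Srebf1* (4.50 ± 0.08) stood above *Srebf2* (2.97 ± 0.15). The mean over the 29 genes was 6.42 ± 0.27 in parental H82, 6.58 ± 0.28 in H524, 6.46 ± 0.08 in H69 and 5.74 ± 0.06 in COR-L88 with DMSO.

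The labels were compared with the induced and edited genes. With dox, *NOTCH1* mRNA stood at 4.26 to 5.56 in H82, 7.58 to 8.31 in H524 and 7.93 to 8.07 in H69, against at most 1.52 in the same vectors without dox. *REST* mRNA was lower in the REST KO libraries of H82 both with dox (4.95, 4.95 and 5.89 against 6.13 to 6.48) and without (3.99, 4.15 and 4.20 against 4.42 to 4.80). *STING1*, listed as *TMEM173*, was lower in STING KO COR-L88 with TAS1440 (1.16, 1.09 and 0.96 against 2.03 to 2.54) but not in STING KO H82 with dox (1.27, 1.53 and 2.04 against 1.07 to 1.17), so those libraries are called by their label, and an mRNA level does not show whether the protein was lost. The leukocyte gene *PTPRC* and the endothelial gene *CDH5* were at most 0.38 and 0.24 in the human groups, and the fibroblast collagen *COL1A1* was at least 5.19 in every dox-treated NOTCH1 library. The study reports that NOTCH1 raised an epithelial-mesenchymal transition score in these lines, and the source of *COL1A1* was not tested. Levels of *PECAM1*, *PDGFRA* and *DCN*, on the same list of other cell types, are not given here. In 10 groups 1 library lay more than 0.3 from the nearest other in the mean of the members. These were libraries 3, 6 and 9 of KP1 (DMSO, TAS1440, and both agents), 33 and 30 of REST KO H82 with and without dox, 41 of DMSO-treated STING KO COR-L88, 24 and 49 of the uninduced NOTCH1 vector in H524 and H69, and 1 and 19 of parental H82 and H524.

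**Figure D1:**
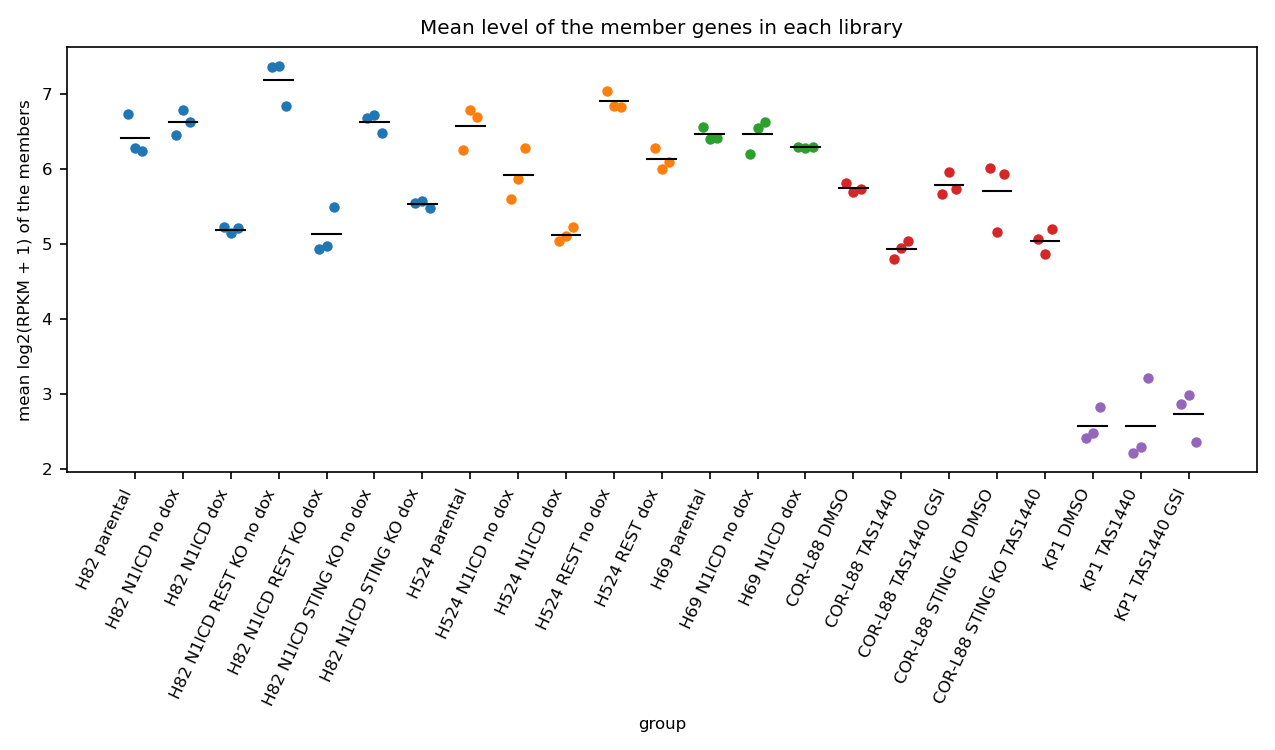
Mean log2(RPKM + 1) over the member genes (29 in human lines, 27 in KP1) for each library, by group (N1ICD is the NOTCH1 vector); bars mark group means, and KP1 has its own scale. The 3 dox-treated NOTCH1 libraries of H82 sit between 5.14 and 5.23 and the uninduced ones between 6.45 and 6.79, while in H69 the groups overlap.

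The first question was how the genes responded to induction of activated NOTCH1 in H82. With dox, 25 of the 29 genes fell, none rose and 4 did not pass the test, with a median log2 fold change of -1.52 against 0.00 over all 13903 genes tested, of which 24.9% fell and 25.4% rose (limma, adjusted *P* under 0.05; at an unadjusted *P* under 0.05 1 member was higher). Here and below, shares over all genes hold at the adjusted threshold only, and were not counted at the unadjusted one. Of the mevalonate genes 6 of 7 fell, of the sterol genes 9 of 11, of the regulators 3 of 4 and of the fatty acid genes 7 of 7. The heat map of 11 comparisons shows H82 as the intact line with the most falls, and the 4 genes that did not pass, *NSDHL* (-0.40), *PMVK* (0.20), *SC5D* (0.37) and *SREBF1* (0.43), had overlapping groups. In bulk RNA, fewer cells that express a gene and less of its RNA per cell cannot be told apart.

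**Figure D2:**
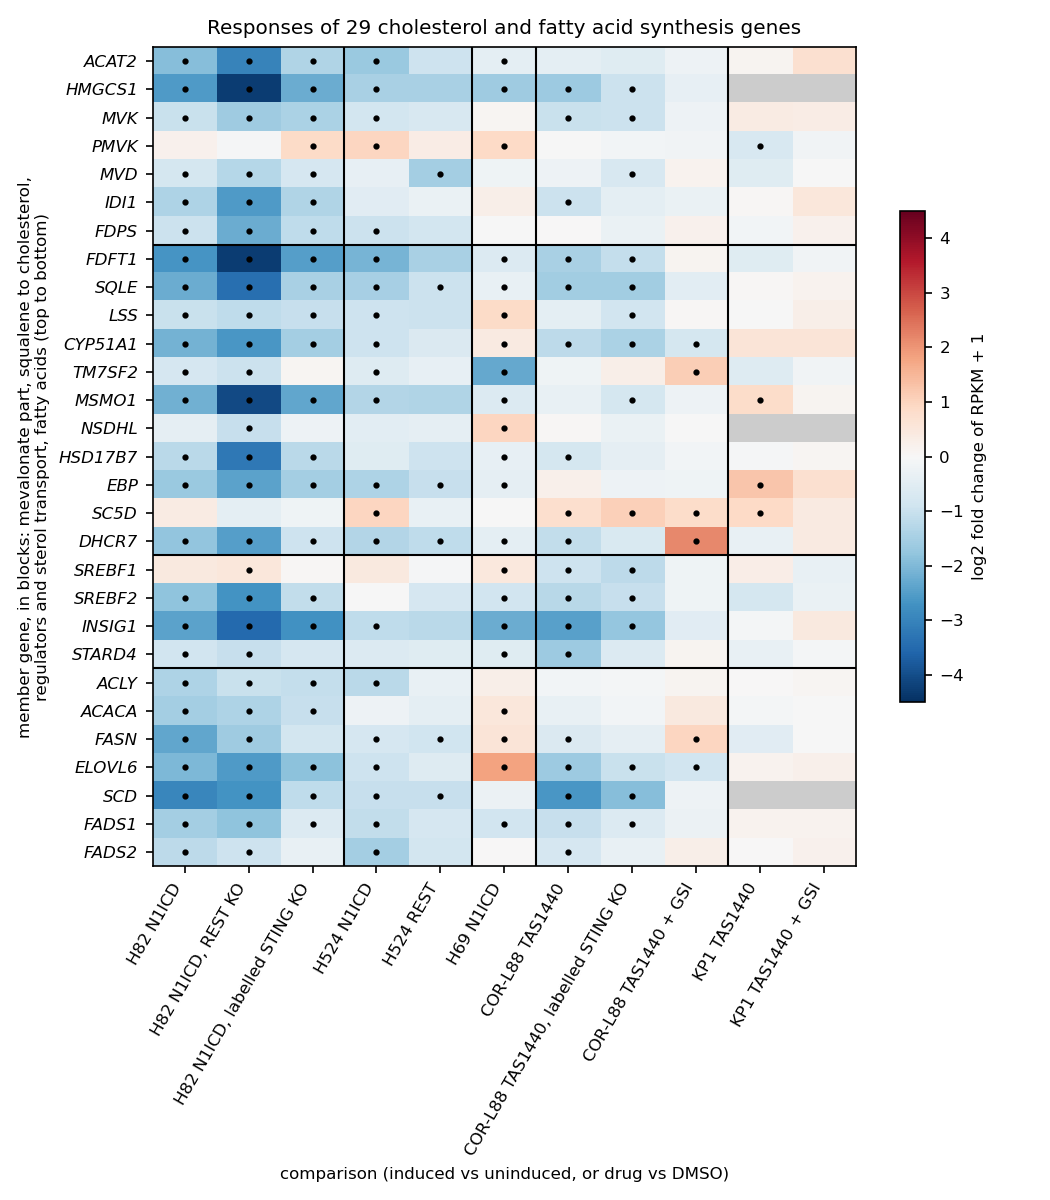
Log2 fold changes of the 29 member genes (rows, by role) in 11 comparisons (columns); blue is lower and red higher, dots mark adjusted P under 0.05, and grey marks genes not listed or not tested in KP1. Falls were called for 25 of 29 genes in H82 (24.9% of all genes), 19 in H524 (14.4%) and 17 in COR-L88 (26.6%). H69 had 13 falls and 8 rises (38.3% and 44.1% of all genes), and KP1 1 fall and 3 rises (18.5% and 18.2%).

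At the entry to the pathway, *HMGCS1*, which makes HMG-CoA (GRCh37 chr5:43287572-43313614), read 5.48, 5.57 and 5.32 in uninduced H82 and 3.03, 2.87 and 2.88 with dox. Every induced library was below every uninduced one, which the rule for picking the genes of largest change required. The fall was 2.53 (SE 0.31, adjusted *P* = 2.45e-06). *FDFT1*, squalene synthase, which commits the pathway to sterols, read 9.00, 10.43 and 9.90 without dox and 6.89, 7.59 and 6.84 with it, a fall of 2.67 (SE 0.35, adjusted *P* = 5.56e-06). The next enzyme, squalene epoxidase (*SQLE*), went from 7.11, 7.41 and 7.27 to 5.08, 4.79 and 5.20. Later steps fell as well: the lanosterol demethylase *CYP51A1* changed by -2.14, the methyl sterol oxidase *MSMO1* by -2.16, *DHCR7*, 7-dehydrocholesterol reductase, by -1.77, and lanosterol synthase (*LSS*) by -0.99.

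*SCD*, the stearoyl-CoA desaturase that makes monounsaturated fatty acids (GRCh37 chr10:102106990-102124583), had the largest fall of all members in H82, from 7.88, 8.40 and 8.16 to 5.39, 4.84 and 5.40 (-2.94, SE 0.36, adjusted *P* = 2.51e-06). *FASN*, fatty acid synthase, went from 7.04, 6.55 and 6.54 to 4.82, 3.42 and 4.83, and *ELOVL6*, which lengthens its product, from 7.93, 7.98 and 7.87 to 5.57, 6.26 and 5.85. Among the regulators, *INSIG1* (GRCh37 chr7:155089486-155101945) read 7.19, 9.08 and 8.66 without dox and 5.90, 5.80 and 6.04 with it, a fall of 2.40 (SE 0.42). *SREBF2* also fell, from 7.52, 9.36 and 9.22 to 7.20, 6.40 and 7.04, and its lowest uninduced library was close to the highest induced one. *SREBF1* moved the other way without passing the test, from 2.58, 2.38 and 2.67 to 3.00, 2.66 and 3.27 (adjusted *P* = 0.0506). In the same libraries the mean of 6 proliferation genes went from 6.81 to 6.99 without dox to 5.68 to 6.34 with it, with 4 of the 6 lower, and the mean of 6 neuroendocrine genes from 5.89 to 5.97 to 1.13 to 1.45, and their part in the result was not tested.

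In H82 labelled REST KO, 26 of the 29 genes fell with dox and 1 rose, with a median of -2.22 (of all genes, 26.2% fell and 26.0% rose). *HMGCS1* read 7.28, 7.32 and 5.90 without dox and 2.36, 2.26 and 3.09 with it, a fall of 4.26 (SE 0.31, adjusted *P* = 2.1e-09). *FDFT1* fell by 4.26 as well (SE 0.35, adjusted *P* = 1.12e-08), from 10.53, 10.50 and 9.84 to 5.90, 5.63 and 6.55, and *MSMO1* by 4.06 (SE 0.39, adjusted *P* = 1.06e-07), from 7.43, 7.43 and 6.25 to 2.89, 2.69 and 3.35. The groups were far apart for each of these genes, and the rule that picked them required that they not overlap. *INSIG1* went from 10.27, 10.30 and 9.39 to 6.15, 6.02 and 7.31, *SCD* from 8.91, 8.95 and 8.17 to 5.47, 5.44 and 7.04, and *SREBF2* from 9.91, 9.90 and 9.57 to 6.86, 7.03 and 7.40. Library 33 was the highest dox-treated library for all 3. It was also the highest in the mean of the 6 proliferation genes, which read 5.30, 5.46 and 6.39 with dox against 6.69 to 6.97 without, with 3 of the 6 lower, and in the neuroendocrine mean, which read 2.86, 3.06 and 3.38 against 5.64 to 5.76. Their part in the result was not tested. *SREBF1* was the 1 member that rose, from 3.54, 3.48 and 3.79 to 4.04, 4.28 and 4.06 (0.52, SE 0.18, adjusted *P* = 0.0185).

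Whether the dox response itself differed with REST KO was tested as a difference of 2 responses. It was more negative in REST KO for 6 members and more positive for none (background 7.26% and 9.34%; 11 and 0 at an unadjusted *P* under 0.05). The 6 were *HSD17B7*, a late sterol ketoreductase (-2.02, SE 0.37, adjusted *P* = 0.000966), *MSMO1* (-1.90), *HMGCS1* (-1.73), *FDFT1* (-1.60), *FDPS*, which makes farnesyl diphosphate (-1.25), and *SQLE* (-1.16). *HSD17B7* read 4.04, 4.57 and 4.41 against 2.98, 3.64 and 2.80 in the intact line and 5.58, 5.51 and 4.88 against 1.89, 1.90 and 2.53 in REST KO. The lines also differed at the same dox state: without dox, 11 members were higher in REST KO than in intact cells and 1 lower (background 6.92% and 8.32%), among them *INSIG1* by 1.68, *MVD* by 1.62 and *HMGCS1* by 1.37. With dox, 9 were lower and 5 higher (background 20.7% and 17.6%), *MSMO1* and *FDFT1* being lower by 1.14 and 1.08 and *FASN* higher by 1.85. Leaving out single libraries moved these counts: the 6 became 3 without library 28, 29 or 32, the 12 called without dox became 5 without library 4 and 4 without library 28 or 29, and the 14 called with dox became 7 without library 8 and 8 without library 31 or 32. *NOTCH1* mRNA with dox was 4.69 higher in REST KO than in intact H82, so REST KO and the level of the induced gene cannot be told apart.

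**Figure D3:**
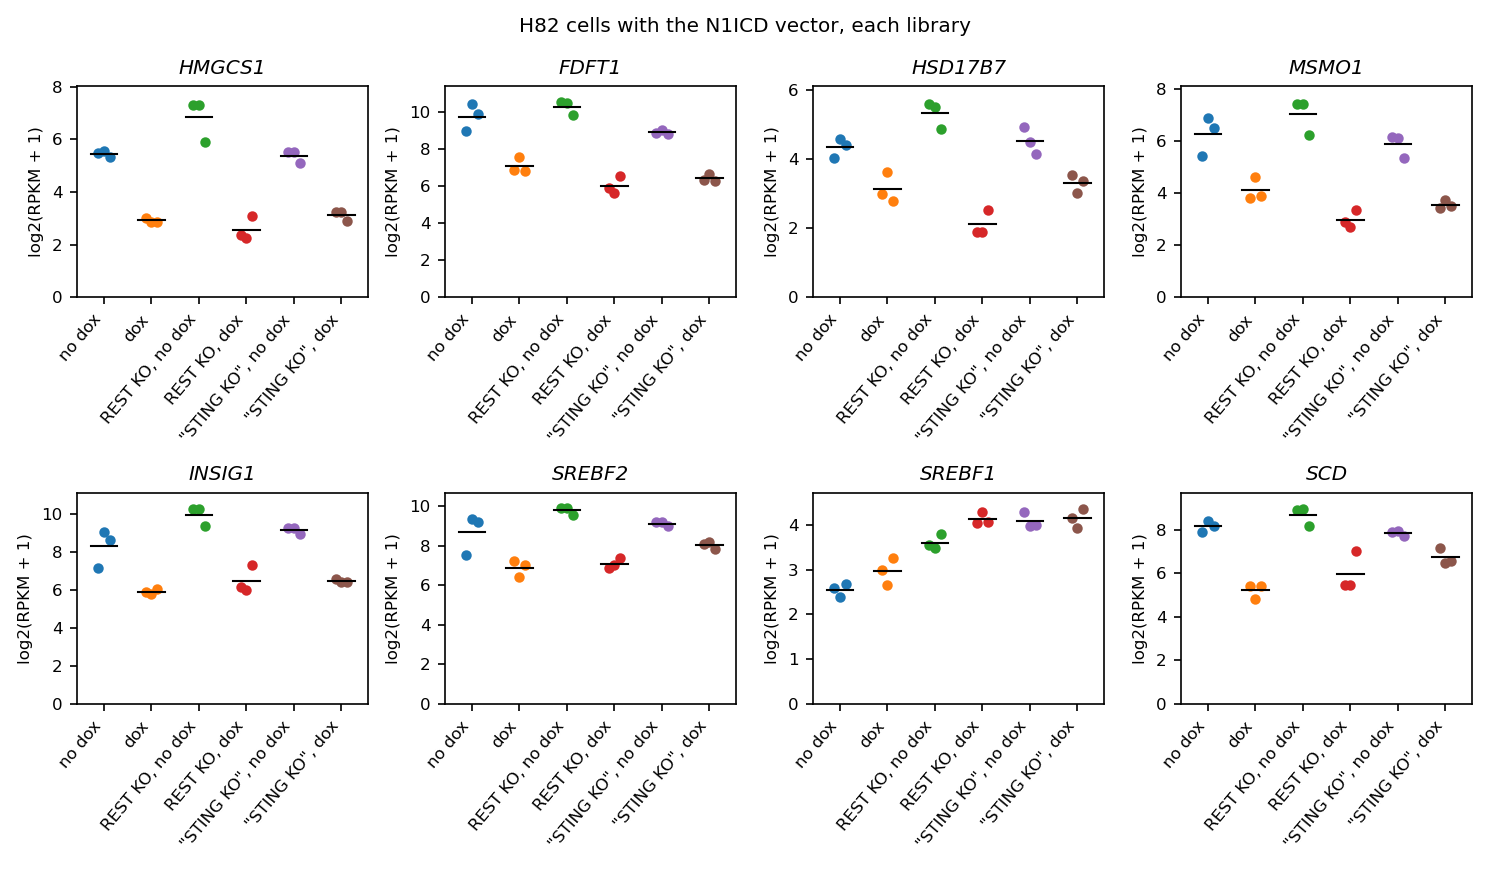
Log2(RPKM + 1) of 8 member genes in each library of 6 H82 groups carrying the NOTCH1 vector (intact, REST KO and STING KO, each without and with dox), with bars at group means. *HMGCS1*, *FDFT1*, *HSD17B7* and *MSMO1* fall furthest in REST KO, and *SCD* falls least in STING KO.

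In H82 labelled STING KO, 21 members fell with dox and 1 rose, with a median of -1.09 (background 16.9% and 20.8%). *INSIG1* fell by 2.72 (SE 0.42, adjusted *P* = 5.27e-05), from 9.30, 9.30 and 8.99 to 6.58, 6.42 and 6.43. *FDFT1* fell by 2.48, from 8.88, 9.05 and 8.84 to 6.34, 6.68 and 6.31, *MSMO1* by 2.32, from 6.16, 6.14 and 5.35 to 3.44, 3.73 and 3.52, and *HMGCS1* by 2.25, from 5.51, 5.50 and 5.12 to 3.24, 3.23 and 2.91. No induced library reached an uninduced one for these 4 genes, which the rule that picked *INSIG1*, *FDFT1* and *MSMO1* required. *PMVK*, phosphomevalonate kinase, rose by 0.87 (SE 0.19, adjusted *P* = 0.00163), from 2.99, 3.41 and 3.62 to 4.32, 4.43 and 3.88. The response differed from that of intact H82 for 2 members (background 5.01% more positive and 4.26% more negative), *SCD* by 1.81 (SE 0.51, adjusted *P* = 0.0321) and *TM7SF2*, a sterol reductase, by 0.86 (SE 0.24, adjusted *P* = 0.0296), both less negative in STING KO. *SCD* went there from 7.91, 7.96 and 7.70 to 7.15, 6.47 and 6.56, and *SREBF2* from 9.18, 9.18 and 8.99 to 8.08, 8.17 and 7.83, while *SREBF1* read between 3.92 and 4.36 in all 6 libraries. The proliferation mean read 6.17 to 6.56 without dox and 4.60 to 6.07 with it in this line, and the neuroendocrine mean 4.48 to 5.20 and 0.94 to 1.95. This count of 2 rested on single libraries: it was 4 without library 4, 1 without library 56 and 0 without any of libraries 5, 6, 8, 55, 57 and 58.

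Between the edited and intact lines at the same dox state, 9 members were higher in STING KO with dox and none lower (background 16.0% and 23.2%; 11 and 0 at an unadjusted *P* under 0.05), led by *FASN* at 1.81 and *SCD* at 1.51, while without dox 2 were higher and 3 lower (background 13.0% and 21.6%). *NOTCH1* mRNA with dox was 2.10 higher in STING KO, and its part was not tested. Carrying the uninduced vector made no member differ from parental H82 (limma, 0 of 29, background 7.56% higher and 6.13% lower, 2 higher at an unadjusted *P* under 0.05), although 4 were called higher without library 4 and 1 without library 1.

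In H524 with NOTCH1 induced, 19 members fell and 2 rose, with a median of -0.92 (of 13648 genes, 14.4% fell and 17.9% rose). Of the mevalonate genes 4 of 7 fell, of the sterol genes 8 of 11, of the regulators 1 of 4 and of the fatty acid genes 6 of 7. *FDFT1* read 7.42, 8.68 and 8.87 without dox and 6.09, 6.25 and 6.41 with it, a fall of 2.07 (SE 0.41, adjusted *P* = 0.00159). *ACAT2*, the cytosolic thiolase at the start of the pathway, fell by 1.66 (SE 0.34, adjusted *P* = 0.00199), from 7.83, 8.49 and 9.24 to 6.58, 6.78 and 7.21. The fatty acid desaturase *FADS2* fell by 1.52 (SE 0.28, adjusted *P* = 0.000849), from 5.72, 6.01 and 7.02 to 4.84, 4.53 and 4.82. In each of these genes the uninduced libraries differed among themselves by more than the induced ones.

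The 2 members that rose in H524 were *PMVK*, from 3.47, 3.59 and 3.57 to 4.51, 4.55 and 4.47 (0.97, SE 0.21, adjusted *P* = 0.00269), and *SC5D*, a late sterol desaturase, from 2.89, 2.26 and 2.81 to 3.41, 3.53 and 3.92 (0.96, SE 0.19, adjusted *P* = 0.00127). *HMGCS1* fell by 1.45, from 4.16, 5.56 and 5.29 to 3.38, 3.54 and 3.75, and *SCD* by 1.05, from 6.04, 6.17 and 6.72 to 5.28, 4.93 and 5.59. *INSIG1* passed the test (-1.14, SE 0.40, adjusted *P* = 0.0419), but its groups overlapped, at 5.83, 7.78 and 7.39 against 5.78, 5.84 and 5.96. *SREBF2* (6.12, 7.99 and 7.45 against 6.92, 7.23 and 7.35) and *SREBF1* (1.08, 2.44 and 2.68 against 2.42, 2.47 and 2.66) overlapped and did not pass. The uninduced NOTCH1 vector line itself had 13 members below parental H524 and none above (background 15.9% and 10.7%), with *MSMO1* lower by 2.49 and *FDFT1* by 2.17, and none of the 13 was called when the fit held only those 2 groups. The part of the neuroendocrine and proliferation genes was not tested. The neuroendocrine mean went from 6.46 to 6.64 to 4.22 to 5.30 and the proliferation mean from 5.46 to 6.40 to 5.22 to 5.57.

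REST, the transcriptional repressor that NOTCH1 induces, was itself induced in H524 to ask how far it acts alone. With dox, 28 of the 29 members had a negative log2 fold change, with a median of -0.82 against 0.01 over all genes. The test was passed by 6, all lower, against 1.06% of all genes lower and 1.77% higher. At an unadjusted *P* under 0.05, 20 were lower and none higher, but the share of all genes at that threshold was not counted. The 6 were *MVD*, mevalonate diphosphate decarboxylase, from 5.83, 5.70 and 5.74 to 4.51, 4.13 and 4.08 (-1.52, SE 0.27, adjusted *P* = 0.00973), *DHCR7*, from 6.58, 6.35 and 6.42 to 5.62, 5.09 and 5.18 (-1.15, SE 0.25, adjusted *P* = 0.0294), *SCD*, from 7.16, 6.80 and 6.85 to 6.32, 5.53 and 5.83 (-1.04, SE 0.24, adjusted *P* = 0.0368), *EBP* (-1.03), *SQLE* (-0.97) and *FASN* (-0.90). *HMGCS1* (8.30, 7.48 and 7.41 against 6.87, 5.64 and 6.28) and *FDFT1* (11.11, 10.38 and 10.38 against 9.66, 8.81 and 8.99) each changed by -1.47 without passing (adjusted *P* = 0.0541 and 0.0789), although their groups did not overlap. *INSIG1* read 7.61, 7.51 and 7.43 against 6.63, 5.81 and 6.48. The count of 6 depended on single libraries, being 2 without library 34 or 38, 1 without library 35 or 36 and 0 without library 39, and it was 13 in a fit of only these 2 groups. *REST* mRNA was uneven with dox, at 6.87, 10.72 and 9.43, against 4.90 to 5.05 without. The proliferation mean was 6.27 to 6.66 without dox and 6.23 to 6.46 with it.

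The responses to NOTCH1 and to REST in H524 differed for 1 member, *SC5D* (1.31, SE 0.26, adjusted *P* = 0.00306; background 11.7% more positive and 7.36% more negative; 2 and 0 at an unadjusted *P* under 0.05), which rose with NOTCH1 and read 3.12, 3.02 and 2.99 against 2.74, 2.64 and 2.72 with REST. The count was 2 when library 23, 24, 34 or 37 was left out. With dox in both vectors, 16 members were lower with NOTCH1 than with REST and 2 higher (background 22.9% and 19.9%), *MSMO1* by 3.02, *FDFT1* by 2.90 and *HMGCS1* by 2.71, and *SREBF1* higher by 1.13. No member of the uninduced REST vector line passed the test against parental cells (limma, 0 of 29, background 0.0366% higher and 0.264% lower, 4 higher at an unadjusted *P* under 0.05).

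In H69 members were called in both directions, as were all genes. With NOTCH1 induced, 13 members fell and 8 rose, with a median of -0.21, in a comparison where 38.3% of 13580 genes fell and 44.1% rose. The falls were thus near the share over all genes and the rises below it, so the mix is not particular to the members. Of the mevalonate genes 2 fell and 1 rose, of the sterol genes 7 and 3, of the regulators 3 and 1 and of the fatty acid genes 1 and 3. The largest falls were those of *TM7SF2*, from 3.38, 3.86 and 3.86 to 1.53, 1.19 and 1.42 (-2.31, SE 0.14, adjusted *P* = 6.3e-07), *INSIG1*, from 8.14, 8.58 and 8.71 to 6.23, 6.26 and 6.21 (-2.24, SE 0.13, adjusted *P* = 5.42e-07), and *HMGCS1*, from 6.04, 6.40 and 6.89 to 4.74, 4.90 and 4.87 (-1.61, SE 0.18, adjusted *P* = 4.14e-05). The induced libraries of H69 lay close together for these 3 genes, and the groups did not overlap, as the rule that picked them required.

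The largest rises in H69 were those of *ELOVL6* (GRCh37 chr4:110967002-111120355), from 5.35, 5.36 and 5.09 to 7.01, 7.11 and 7.11 (1.81, SE 0.10, adjusted *P* = 2.74e-07), *NSDHL*, a sterol dehydrogenase, from 4.16, 4.56 and 4.60 to 5.37, 5.39 and 5.43 (0.96, SE 0.11, adjusted *P* = 4.62e-05), and *PMVK*, from 3.82, 3.75 and 4.03 to 4.74, 4.85 and 4.74 (0.91, SE 0.09, adjusted *P* = 1.33e-05). *LSS* rose by 0.86, *FASN* by 0.56, *ACACA*, acetyl-CoA carboxylase, by 0.52 and *CYP51A1* by 0.41. The regulators split: *SREBF2* fell, from 8.70, 8.83 and 8.87 to 7.99, 7.96 and 7.88, and *SREBF1* rose, from 3.32, 3.62 and 3.52 to 4.00, 3.93 and 3.93. *SCD* read 6.84, 7.25 and 7.52 without dox and 6.93, 6.99 and 6.92 with it and did not pass. The proliferation mean was 6.17 to 6.37 without dox and 6.22 to 6.27 with it, while the neuroendocrine mean went from 5.54 to 5.99 to 0.54 to 0.65. Against parental H69, 3 members were higher and 1 lower in the uninduced vector line (background 13.8% and 13.6%), a count of 4 that was 10 without library 49 and 2 without library 48.

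The H69 response was compared with those of the other 2 lines in a model of all 60 human libraries. Against H82 it was more positive for 20 members and more negative for 1, *TM7SF2* (-1.56), where the background was 31.5% and 29.1% of 15888 genes. Of these, 5 genes passed the test in opposite directions in the 2 lines: *ELOVL6* (difference 3.84, SE 0.34, adjusted *P* = 2.43e-13), *FASN* (2.92), *CYP51A1* (2.55), *ACACA* (2.04) and *LSS* (1.85). Against H524 it was more positive for 14 and more negative for 2, *TM7SF2* (-1.74) and *SC5D* (-0.98; background 27.9% and 26.9%), with opposite calls for *ELOVL6* (2.73), *LSS* (1.78), *CYP51A1* (1.34) and *FASN* (1.33). H524 in turn was more positive than H82 for 7 members and more negative for none (background 16.8% and 15.5%; 12 and 0 at an unadjusted *P* under 0.05), by 1.89 for *SCD*, 1.80 for *SREBF2* and 1.59 for *FASN*. For *INSIG1*, which fell in each line, no difference between lines passed the test (adjusted *P* from 0.0709 to 0.835), nor did any for *HMGCS1* (0.0763 to 0.802).

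**Figure D4:**
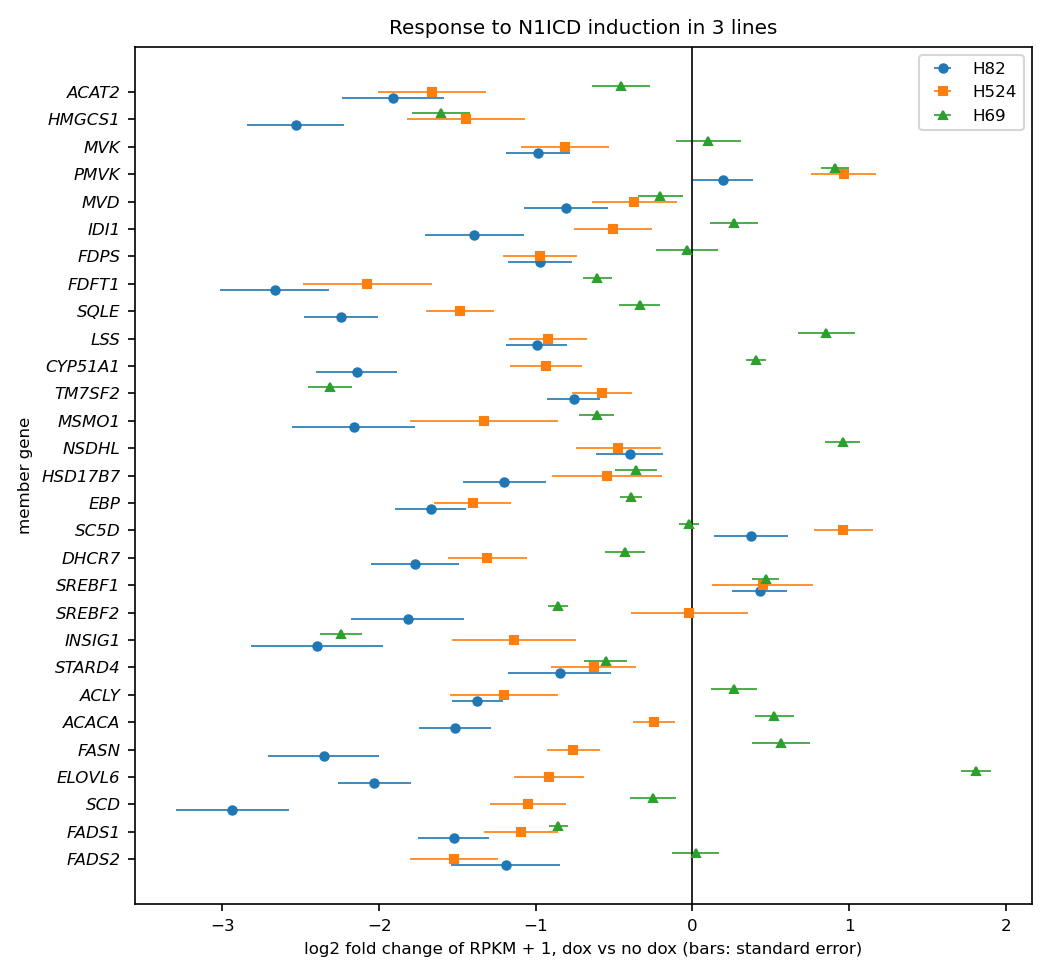
Log2 fold change with dox (points, with SE as bars) of each member gene in the NOTCH1-vector lines H82, H524 and H69. The H69 response was more positive than that of H82 for 20 genes, furthest for *ELOVL6* (1.81 against -2.03, with -0.92 in H524), and more negative for *TM7SF2*. Over all genes it was more positive for 31.5% and more negative for 29.1%.

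COR-L88 was used to ask what follows when endogenous Notch is activated by LSD1 inhibition. With TAS1440, 17 members fell and 1 rose relative to DMSO, with a median of -0.80 (of 13134 genes, 26.6% fell and 31.1% rose). All 4 regulators fell, as did 5 of 7 fatty acid genes, 5 of 11 sterol genes and 3 of 7 mevalonate genes. *SCD* read 6.28, 6.64 and 6.71 with DMSO and 3.67, 3.84 and 4.27 with TAS1440 (-2.62, SE 0.29, adjusted *P* = 4.63e-06). *INSIG1* went from 7.00, 6.94 and 6.69 to 4.28, 4.41 and 4.65 (-2.43, SE 0.31, adjusted *P* = 1.7e-05) and *HMGCS1* from 5.71, 5.35 and 5.03 to 3.49, 3.71 and 3.94 (-1.65, SE 0.32, adjusted *P* = 0.000649). In all 3 genes every TAS1440 library was below every DMSO library, as the rule that picked them required.

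Both factor genes fell with TAS1440, *SREBF2* from 7.33, 7.56 and 7.78 to 6.05, 6.39 and 6.47 (-1.25) and *SREBF1* from 3.19, 3.49 and 3.54 to 2.13, 2.45 and 2.81 (-0.94), and the sterol carrier *STARD4* fell by 1.62. The 1 rise was that of *SC5D*, from 3.26, 3.05 and 3.14 to 3.54, 3.92 and 4.27 (0.76, SE 0.21, adjusted *P* = 0.00818). *REST* mRNA rose from 3.52 to 3.57 to 6.25 to 6.57, the neuroendocrine mean went from 5.97 to 6.09 to 2.32 to 2.64, and the proliferation mean from 5.98 to 6.37 to 4.90 to 5.32, and the part of the last 2 was not tested.

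The GSI was added to TAS1440 to block Notch cleavage. No COR-L88 or KP1 group had the GSI without TAS1440, and the study states that such drugs also act on other membrane proteins. Blocked Notch cleavage and other effects of the GSI therefore cannot be told apart. Relative to TAS1440 with GSI, 17 members were lower with TAS1440 alone and none higher (background 19.0% and 27.7%; 20 and 1 at an unadjusted *P* under 0.05), with a median of -0.76. *SCD* read 5.91, 6.58 and 6.40 with both agents and *INSIG1* 6.16, 6.63 and 6.30, each above every library with TAS1440 alone (-2.37 and -1.92). *HMGCS1* read 4.72, 5.36 and 4.87, *SREBF2* 7.15, 7.54 and 7.45, and *SREBF1* 3.11, 3.23 and 3.25. Of the 29 members, 4 were above DMSO with both agents, 2 below and 23 did not pass the test (background 13.1% higher and 11.4% lower). The 4 were *DHCR7*, *TM7SF2* (1.10), *FASN* (0.96) and *SC5D* (0.83), and the 2 *ELOVL6* (-0.85) and *CYP51A1* (-0.81). The proliferation mean read 5.77 to 5.90 with both agents and 4.90 to 5.32 with TAS1440 alone, and its part was not tested.

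*DHCR7* (GRCh37 chr11:71139239-71163914) had the largest difference of all members between TAS1440 and TAS1440 with GSI. It read 5.18, 4.83 and 4.96 with DMSO, 3.76, 3.89 and 4.01 with TAS1440 and 7.28, 7.11 and 7.11 with both, so that it was below DMSO with TAS1440 (-1.10, SE 0.35, adjusted *P* = 0.0158) and above it with both agents (2.18, SE 0.35, adjusted *P* = 0.000419). *FASN* followed the same order, at 4.96, 5.01 and 4.99, then 4.29, 4.38 and 4.38, then 5.84, 6.15 and 5.84. *SC5D* did not: with both agents it read 3.89, 4.02 and 4.03, within the range of TAS1440 alone. *REST* mRNA was as high with both agents (6.19 to 6.32) as with TAS1440, and *NOTCH1* mRNA was higher (6.71 to 6.75 against 1.99 to 2.79), an mRNA level that does not report cleaved NOTCH1.

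**Figure D5:**
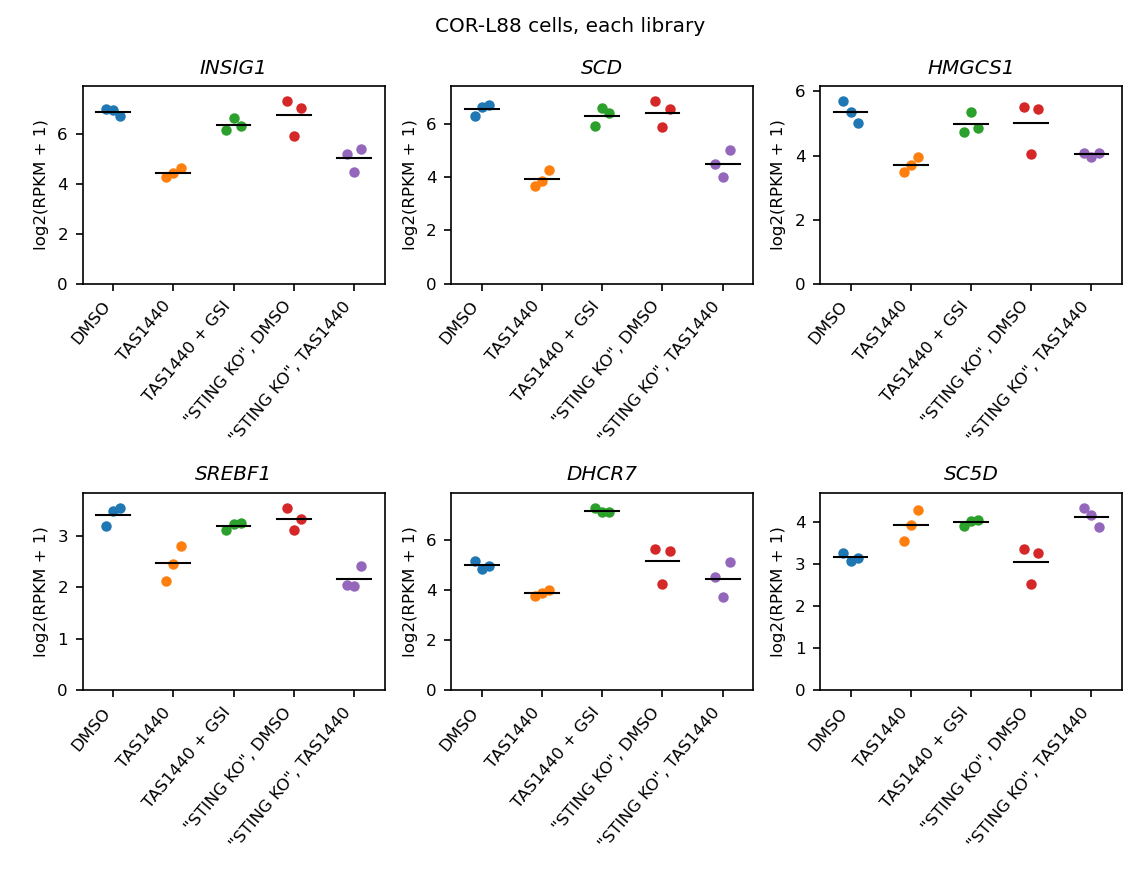
Log2(RPKM + 1) of *INSIG1*, *SCD*, *HMGCS1*, *SREBF1*, *DHCR7* and *SC5D* in each library of the 5 COR-L88 groups, with bars at group means. The first 4 genes are low with TAS1440 and near DMSO with TAS1440 and GSI, *DHCR7* reaches 7.11 to 7.28 with both agents, and *SC5D* is high in all TAS1440 groups.

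In STING KO COR-L88, 14 members fell with TAS1440 and 1 rose, with a median of -0.63 (background 20.9% and 22.4%). *SCD* went from 6.83, 5.86 and 6.54 to 4.48, 4.00 and 5.02 (-1.91, SE 0.29, adjusted *P* = 0.000128), *INSIG1* from 7.31, 5.90 and 7.03 to 5.20, 4.47 and 5.38 (-1.73, SE 0.31, adjusted *P* = 0.000502) and *SQLE* from 6.40, 5.47 and 6.51 to 4.56, 4.13 and 4.97 (-1.57, SE 0.26, adjusted *P* = 0.000251). Library 41 was the lowest DMSO library for all 3, and without it 24 members fell and 1 rose. That library stood apart by its low level of these very genes, so the fit without it is only a description. The share over all genes in that fit is not given here. *SC5D* rose again, from 3.35, 2.52 and 3.26 to 4.33, 4.15 and 3.86 (1.07, SE 0.21, adjusted *P* = 0.00117). *HMGCS1* (5.52, 4.03 and 5.45 against 4.08, 3.96 and 4.09) fell by 0.96 with overlapping groups, *SREBF1* (3.55, 3.12 and 3.33 against 2.05, 2.03 and 2.42) by 1.17 and *SREBF2* (7.96, 7.47 and 7.80 against 6.74, 6.42 and 6.97) by 1.03. The proliferation mean went from 5.85 to 6.39, lowest in library 41, to 5.26 to 5.59, and its part was not tested.

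No member had a response to TAS1440 that differed between STING KO and intact COR-L88 (limma, 0 of 29, background 1.92% more positive and 6.01% more negative; 1 and 0 at an unadjusted *P* under 0.05), but 5 had a more negative response in STING KO without library 41 and 1 a more positive one without library 13. With TAS1440 in both lines, 1 member, *TM7SF2*, was higher in STING KO (0.79; background 8.34% higher and 18.8% lower), a count that was 0 without library 13, 43 or 45 and 2 without library 44. With DMSO none differed (background 2.28% and 3.13%; 0 higher and 2 lower at an unadjusted *P* under 0.05), and 3 were higher without library 41. The counts without library 41 are only descriptions, as it stood apart by its low level of the members.

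In the mouse line KP1, 3 of the 26 members tested rose with TAS1440 and 1 fell, with a median of -0.01 (of 8260 genes, 18.2% rose and 18.5% fell). *Ebp*, a sterol isomerase, read 1.79, 1.84 and 1.80 with DMSO and 3.22, 2.17 and 3.77 with TAS1440 (1.24, SE 0.34, adjusted *P* = 0.0191). *Sc5d* read 2.26, 2.30 and 2.24 against 2.62, 2.96 and 3.93 (0.90, SE 0.30, adjusted *P* = 0.0402), and *Msmo1* 1.43, 1.57 and 2.08 against 1.94, 2.67 and 2.94 (0.83, adjusted *P* = 0.0395), the latter with overlapping groups. *Pmvk* fell, from 2.04, 2.15 and 2.06 to 1.03, 1.26 and 1.83 (-0.72, SE 0.19, adjusted *P* = 0.0158).

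Neither *Insig1* (3.39, 3.39 and 4.16 against 2.87, 2.87 and 4.94) nor *Srebf1* (4.50, 4.57 and 4.42 against 4.71, 4.28 and 5.35) nor *Srebf2* (2.84, 2.95 and 3.13 against 1.97, 1.93 and 2.69) passed the test. Of the 4 mouse desaturase genes related to *SCD* that were listed, *Scd3* and *Scd4* were at most 0.042 and 0.21 in every library. *Scd1* rose, from 1.21, 1.36 and 0.78 to 3.94, 4.68 and 5.05 (3.44, adjusted *P* = 0.000729), and *Scd2* read 5.89, 5.97 and 5.97 against 6.20, 6.52 and 7.58. No member differed between TAS1440 and TAS1440 with GSI, or between both agents and DMSO (limma, 0 of 26 each; background 15.7% and 0.642% higher and 16.3% and 1.33% lower; at an unadjusted *P* under 0.05 1 higher and 1 lower, and 0).

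The third TAS1440 library, 6, had the highest level of its group for *Insig1*, *Srebf2*, *Srebf1* and *Sc5d*, and the third library with both agents, 9, the lowest of its group for *Insig1* (4.62, 4.67 and 2.98), *Srebf2* and *Srebf1*. The neuroendocrine mean of library 6 (2.32) was also above those of the other TAS1440 libraries (0.048 and 0.88), and the proliferation mean of library 9 (4.15) was below those of its group (5.12 and 5.26). The count of 4 was 8 without library 6, 2 higher and 6 lower, 2 without library 3, 1 without library 1 and 0 without library 2, and the count of 0 against TAS1440 with GSI was 6 without library 6, 2 without library 9 and 1 without library 4 or 5. Libraries 6 and 9 were picked for their levels of these very genes, so a fit without both is only a description: it called 2 members higher and 8 lower against DMSO (background 24.4% and 23.8%) and 15 lower against TAS1440 with GSI (background 22.2%).

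Across the 8 human comparisons of NOTCH1, REST or TAS1440 with their controls, *SQLE* was called lower in 8, and *HMGCS1*, *FDFT1*, *DHCR7*, *INSIG1*, *SCD* and *FADS1* in 7. Of 11301 genes tested in all 8, 0.0442% were lower in 8 and 1.01% in at least 7. Several of the 8 comparisons share a line, so they are not independent. The calls of *SQLE*, *DHCR7* and *SCD* with REST in H524 rested on single libraries, as no member was called there without library 39. In H69 *SQLE* changed by only -0.34, with overlapping groups (5.45, 5.89 and 6.01 without dox, 5.42, 5.47 and 5.45 with it). *PMVK* and *SC5D* were lower in none and higher in 3 each, and *SREBF1* was lower in 2 and higher in 2. Taking the intact lines only, 6 members were lower in H82, H524, H69 and COR-L88, namely *DHCR7*, *FADS1*, *FDFT1*, *HMGCS1*, *INSIG1* and *SQLE*, and 12 were lower in H82, H524 and COR-L88, of which *CYP51A1*, *ELOVL6* and *FASN* were higher in H69. Over all genes tested in the same lines these shares were 2.24%, 3.15% and 0.451%. *FADS1* and *FADS2* overlap on opposite strands, and *HSD17B7* and *FDPS* have pseudogene copies, so that their values could hold shared reads. Over the 20 human group means, 4 of the 5 genes whose levels were most correlated with the mean of the members were the mitotic genes *NUSAP1* (Pearson's *r* = 0.913), *BUB1B* (0.91), *CKAP5* (0.904) and *CCNF* (0.898), a description over groups that share a line and a control.

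Other genes of sterol and lipid biology moved in both directions. Of 11 genes that take up, export, store or traffic sterols or regulate these steps, 4 rose and 3 fell with NOTCH1 in H82, 5 and 3 in H524, 5 and 5 in H69, and 6 and 2 with TAS1440 in COR-L88. Over all genes 25.4% rose and 24.9% fell in H82, 17.9% and 14.4% in H524, 44.1% and 38.3% in H69, and 31.1% and 26.6% in COR-L88, so several of these counts are near the background. *NPC2* and *LIPA*, which release cholesterol from lysosomes, rose in all 4 (*NPC2* by 2.61, 2.76, 0.75 and 1.95, *LIPA* by 1.30, 1.26, 3.19 and 1.44). The cholesterol exporter *ABCA1* rose by 3.08 in H82 and 4.48 in H524 and fell by 1.67 in H69, and the exporter *ABCG1* fell in all 4, by 1.99, 1.62, 4.10 and 1.97. Of 15 genes of lipid assembly and elongation, 1 rose and 5 fell in H82, 1 and 3 in H524, 11 and 2 in H69, and 9 and 1 in COR-L88, where *ACACB* rose by 2.11 and *ACSS2* by 1.75. Among the 4 genes that process the SREBP proteins, *SCAP* fell by 0.94 in H82 and rose by 0.76 in H69, and *MBTPS1*, the Golgi protease that makes the initial cut, rose by 0.41 in H524, 0.92 in H69 and 1.09 in COR-L88. In KP1 2 of the 5 sterol handling genes tested rose and 1 fell, and of 12 lipid assembly genes 4 rose and 1 fell (18.2% and 18.5% over all genes).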

How the data were processed

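RNA was sequenced in 60 human and 9 KP1 libraries, from stranded mRNA kits on a NovaSeq instrument. As the authors describe, cutadapt removed adapters, STAR and RSEM aligned and quantified the reads, and edgeR's TMM scaling preceded the RPKM values, and the submitters' processing notes name hg19 and mm10. The deposited files hold log2 values of RPKM + 1, the pseudocount of 1 being read from the floor of 0, in 1 human and 1 KP1 table scaled separately. Read counts were not used here; from the smallest values, relative library size was 0.697 to 1.52 in the human and 0.871 to 1.07 in the KP1 table, and absolute depth is unknown. Groups were taken from the labels.

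Genes that reached a log2 value of 1 in 3 or more of a line's libraries were tested with limma 3.58.1 (R 4.3.3; 1 model per line, intensity trend, two-sided), *P* values received a Benjamini-Hochberg adjustment across every tested gene, and a gene was called at an adjusted *P* under 0.05. Differences of responses were contrasts in the same models, and responses of H82, H524 and H69 were compared in 1 model of the 60 human libraries. Tested on simulated data with 200 genes changed by 1.5, the fit recovered 86.0% (H82), 76.0% (H524), 93.0% (H69), 94.5% (COR-L88) and 84.5% (KP1), and the false share of its calls was 3.37%, 2.56%, 6.06%, 3.57% and 8.65%, above the threshold in H69 and KP1. Values in every library were printed, for each activation comparison, for the called members with the 3 largest rises and 3 largest falls whose groups did not overlap, and for *INSIG1*, *SREBF1*, *SREBF2*, *SCD* and *HMGCS1*; other genes were named after their values were seen. The members and gene lists were chosen with earlier results of these data known. Alternatives were no filter, a pseudocount of 0.1, median-centred values, only the compared groups, and leaving out each library. Positions are GRCh37 for genes and GRCh38.p14 for RefSeq promoters. Python 3.11.15, pandas 2.3.3 and matplotlib 3.10.9 made tables and figures. The remaining gene with a pattern like that of the members is not reported here.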

Additional observations from a re-analysis of the deposited data

Results flagged for a closer look

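These results were singled out because a response differed between lines, edits or vectors by a test of the difference itself; no explanation was tested. The dox response of 6 members differed with REST KO in H82 (*HSD17B7* -2.02, *MSMO1* -1.90, *HMGCS1* -1.73, *FDFT1* -1.60, *FDPS* -1.25 and *SQLE* -1.16, all more negative in REST KO), against 16.6% of all genes that differed in either direction. With STING KO it differed for 2 (*SCD* 1.81 and *TM7SF2* 0.86), against 9.26% of all genes, and between NOTCH1 and REST in H524 for 1 (*SC5D* 1.31), against 19.1%, so neither count is above the background. The STING KO count was 0 without any of libraries 5, 6, 8, 55, 57 and 58.

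Between lines, the NOTCH1 response differed for 21 members between H69 and H82, for 16 between H69 and H524 and for 7 between H524 and H82. Over all genes the shares in either direction were 60.6%, 54.8% and 32.4%, so with both directions pooled the last 2 counts are near or below the background. By direction they were uneven. For H69 against H524, 14 were more positive and 2 more negative, and for H524 against H82, 7 and 0, beside the shares by direction given above. The members called in opposite directions in H69 and H82 were *ELOVL6* (difference 3.84), *FASN* (2.92), *CYP51A1* (2.55), *ACACA* (2.04) and *LSS* (1.85), and those in H69 and H524 were *ELOVL6* (2.73), *LSS* (1.78), *CYP51A1* (1.34) and *FASN* (1.33). No group holds more than 3 libraries, so single libraries were not tested as outliers.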

How the results depend on the processing

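Of the 31 counts of called members, 30 stayed within 1.5 times without the filter, 31 with a pseudocount of 0.1 and 28 with median-centred values, and 18 of 24 did with only the compared groups. With only the compared groups, the count was 9 for REST KO against intact H82 with dox and 6 without, 3 for STING KO against intact H82 without dox, 13 for REST in H524, 0 for the uninduced NOTCH1 vector against parental H524 and 0 for STING KO against intact COR-L88 with TAS1440. With median-centred values it was 2 for the last of these, 2 for KP1 TAS1440 against DMSO (also 2 with no filter) and 1 for KP1 TAS1440 against both agents, and the medians were 0.25 for STING KO against intact H82 with dox, -0.93 for COR-L88 TAS1440 against DMSO (-0.91 with a pseudocount of 0.1) and -0.89 against both agents. Without KP1 libraries 6 and 9, chosen after seeing the data, the counts were 10 against DMSO and 15 against both agents, with a median of -0.75 for the latter.

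Leaving out single libraries gave these ranges. In H82 the median was -1.63 to -1.38 with NOTCH1, REST KO against intact gave 7 to 13 calls (median -0.48 to -0.10) with dox and 4 to 10 without, the vector against parental 0 to 4, the difference of responses with REST KO 3 to 7 and that with STING KO 0 to 4 (median 0.15 to 0.32), and STING KO against intact with dox a median of 0.13 to 0.33. In H524, REST gave 0 to 6 calls and the difference of NOTCH1 and REST 1 to 2, and the H69 vector against parental 2 to 10. In COR-L88 the median with TAS1440 was -0.98 to -0.69, STING KO gave 12 to 25 calls with TAS1440, STING KO against intact 0 to 2 with TAS1440 and 0 to 3 with DMSO (median -0.19 to 0.28), and the difference of responses 0 to 5 (median -0.0725 to 0.37). KP1 gave 0 to 8 calls against DMSO and 0 to 6 against both agents, and H524 minus H82 a median of 0.34 to 0.67. The 2 libraries left in a group were assumed to vary like the other groups, and the causes were not tested.

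Of single genes, *FADS2* in H69 became -0.18 (adjusted *P* = 0.026) without uninduced library 49, and without KP1 libraries 6 and 9 *Fads2* became -0.36 against DMSO and *Fads1* -0.39 and *Mvk* -0.53 against both agents. Over all single genes and libraries left out, 2025 values stayed called or uncalled, 144 lost the call, 38 gained it and 1 reversed with a call. Called genes among the 2025 kept their direction, but for uncalled genes a change of sign was not counted. No paired analysis was possible because the library numbers run through the series and no 2 compared groups share them. The tables give no read counts, so the precision of low genes is known only from the spread between 3 libraries.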
